A study of Mus musculus with 4 samples.

Results

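Cycling cardiomyocytes of the embryonic mouse heart were compared with noncycling cardiomyocytes of the same dissected region. Of 22805 deposited cell barcodes, 21035 held at least 500 genes, and 13225 of these had a muscle score of at least 1.5, where the score was the mean over Tnnt2, Myh6, Ttn, Actn2 and Ryr2 of ln(1 + unique molecular identifiers (UMIs) per 10000). A cardiomyocyte was called cycling when it held at least 1 UMI of at least 4 of the 8 genes Top2a, Mki67, Cdk1, Ccna2, Bub1, Aurkb, Hmmr and Anln, and noncycling when it held none of them. Both classes were thus chosen by measured UMIs of these 13 genes. This gave 2601 cycling and 7669 noncycling cardiomyocytes. The 2955 cells with 1 to 3 of the genes were kept as an intermediate class and entered no test. The UMIs of each class were summed per library, so that the 4 libraries each gave 1 cycling and 1 noncycling sum and a pair within the library.

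The libraries were made with the 10x Genomics 3' single-cell chemistry from heart regions microdissected at embryonic day 16.5 from wild-type CD1 mice, an outbred stock. There was 1 library for each of 4 regions, labelled SAN region (the sinoatrial node with its surroundings), AVN/His region (atrioventricular node and His bundle), BB/PF region (Left Ventricle) and BB/PF region (Right Ventricle) (bundle branches and Purkinje fibres). No mouse carried a transgene or received a treatment. The number of embryos behind each library and whether the libraries came from separate animals were not given. The tests below therefore measure the spread of the cycling-to-noncycling difference over 4 libraries. That spread may be technical, and it also holds any difference between regions, since each region had 1 library. Values are listed below in the order SAN, AVN/His, left ventricular BB/PF and right ventricular BB/PF library.

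Fetal cardiomyocytes divide while they contract, and the heart grows before birth mainly by this division. A dividing cell first licenses and copies its DNA, driven by E2F transcription factors that are released when cyclin-dependent kinases phosphorylate Rb proteins, and then assembles a spindle, segregates its chromosomes and splits by cytokinesis, driven by genes that the B-Myb and FoxM1 factors switch on late in the cycle. Cardiomyocytes take their sarcomeres partly apart in mitosis, and outer compact myocardium is known to divide more than the inner trabeculae, which give rise to the Purkinje network of the ventricular conduction system.

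The share of cardiomyocytes that met the cycling rule was 15.7% in the SAN region (508 of 3234 cells, 95% exact Clopper-Pearson interval 14.5 to 17.0), 20.7% in the AVN/His region (584 of 2816, 19.3 to 22.3), 22.3% in the left ventricular BB/PF region (960 of 4297, 21.1 to 23.6) and 19.1% in the right ventricular BB/PF region (549 of 2878, 17.7 to 20.6). The share was lowest in the SAN library and highest in the left ventricular library. These intervals cover counting error only, and with 1 library per region no test between regions was possible. Erythroid barcodes, with over 50% hemoglobin UMIs and a median of 5145 to 6229 UMIs, met the same cycling rule in 2 of 420, 3 of 281, 0 of 346 and 0 of 629 cases, the last 2 of which allow shares of up to 0.867% and 0.477%. Barcodes with a muscle score under 1 met it in 18.1%, 19.1%, 35.1% and 24.96% of cases.

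Detection of the cycle genes was spread over the whole range of the rule. Of the 13225 cardiomyocytes, 1843 held 1 of the 8 genes, 654 held 2, 458 held 3, 481 held 4, 532 held 5, 529 held 6, 601 held 7 and 458 held all 8. Cells just outside and just inside the limit, with 3 and 4 genes, were therefore about as frequent as cells well inside it. On the muscle score, 171 barcodes lay between 1.25 and 1.5 and 362 between 1.5 and 1.75.

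**Figure D1:**
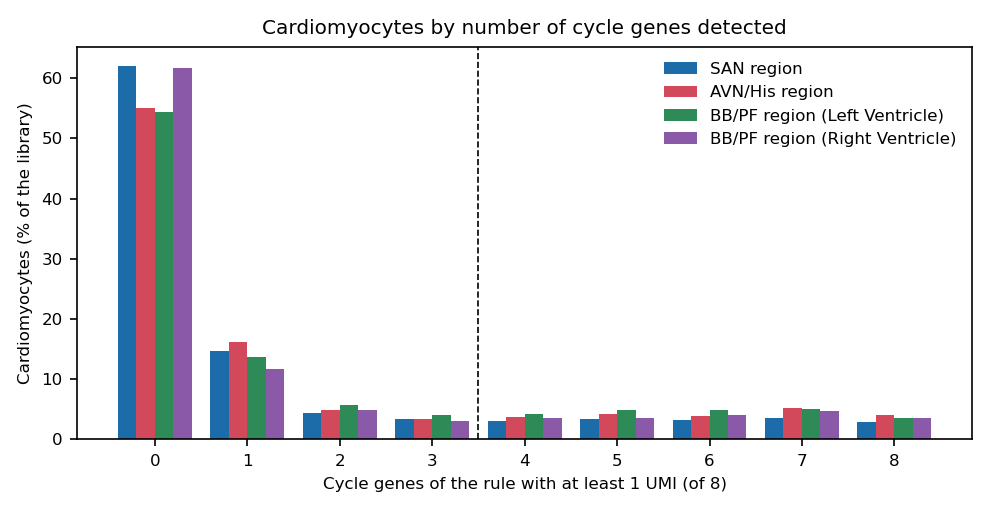
Percent of the cardiomyocytes of each library (vertical axis) by how many of the 8 cycle genes had at least 1 UMI (horizontal axis), with a dashed line at the limit for cycling cells. Cells with none of the genes made up 62.1%, 55.1%, 54.4% and 61.6% of the 4 libraries, and the counts from 3 to 8 genes were flat.

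Both classes carried the markers of cardiomyocytes. The summed level of 8 cardiomyocyte markers outside the score (Actc1, Myl4, Tnni3, Tnni1, Mybpc3, Nkx2-5, Tnnc1 and Csrp3) was 29655 to 43461 counts per 1000000 (CPM) in noncycling and 24880 to 33478 CPM in cycling cells, and none was at 0. The SAN library's cardiomyocytes were of the atrial kind, with more Myl2 (ventricular myosin light chain) than Myl7 (atrial) UMIs in 0.2% of noncycling cells and 0 of 508 cycling cells (which allows a share of up to 0.591%), whereas 93.0% to 100% of the cells of both classes did so in the other 3 libraries. Of other cell types, fibroblast markers moved with the class: all 8 (Col1a1, Col1a2, Col3a1, Postn, Dcn, Tcf21, Pdgfra and Lum) passed the test as higher in cycling cells, and their sum was 456, 296, 68.0 and 91.1 CPM in noncycling and 1132, 542, 133 and 152 CPM in cycling cells. Of the 10 endothelial markers 2 were higher, with sums of 23.4 to 70.8 and 27.9 to 133 CPM, and of the 6 tested mural markers 4 were higher and 1 lower, with sums of 52.2 to 113 and 78.0 to 103 CPM. Macrophage (3.93 to 39.0 CPM), epicardial (7.28 to 27.8) and neural (7.15 to 18.2) sums were low in both classes, with Sox10, a defining glial marker, at 0 in 7 of the 8 sums. Erythroid markers ran the other way, at 2338 to 7295 CPM in noncycling and 1483 to 5474 CPM in cycling cells. Cells with UMIs of at least 3 markers of another type, or over 1% hemoglobin, were 13.3%, 7.99%, 3.13% and 5.02% of noncycling and 25.2%, 11.5%, 4.06% and 7.83% of cycling cells, and Scrublet doublet scores over 0.2 were held by 0.958% to 3.34% and 3.83% to 8.13%. No cell was removed for these in the values below. In an alternative added after the data were seen that removed both kinds, 2984 genes were higher and 3450 lower. Cells were removed there by these same markers, and of the 6 fibroblast markers still tested 5 were lower and none higher. Between libraries, 45 of 10225 different barcodes of the compared cells occurred in more than 1 library.

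Cycling cells held more UMIs. Their median was 12465.5, 13468.5, 10578 and 11543 UMIs per cell, against 8628.5, 10161, 8148.5 and 8843 in noncycling cells, so the cycling median was higher in each of the 4 libraries. The rule itself needs detection and so favours deep cells. With every cell thinned to 3000 UMIs, cycling cells still held more genes, with medians of 1398.5, 1306, 1299 and 1290 against 1257, 1178, 1174 and 1136. Mitochondrial transcripts took 8.90%, 13.3%, 12.99% and 15.4% of a cycling cell's UMIs at the median and 11.6%, 15.3%, 15.3% and 18.8% of a noncycling cell's.

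The sums held 6485074 to 19457567 UMIs, and 11949 genes passed the filter on low counts. With edgeR's quasi-likelihood test and the library as a block, 3045 genes (25.5%) were higher and 3395 (28.4%) lower in cycling cells at an adjusted p under 0.05, or 53.9% in either direction, and 1343 (11.2%) and 1062 (8.89%) also differed by at least 1.5-fold. Fold changes below are edgeR's log2 fold changes ± SE of cycling over noncycling cells on TMM-normalised counts, and levels are TMM-normalised CPM. Against plain scaling to total UMIs, TMM placed the median of all genes at -0.03 rather than 0.13, a shift of 0.16, and under total UMIs 4668 genes were higher and 1879 lower. Small changes, of the order of this shift, therefore depended on the scaling, and where it turned a group's balance both counts are given. Levels are thus shares of the UMIs of tested genes divided by TMM factors, and not plain shares. These factors were larger in the cycling sum of each library, at 1.17, 1.05, 1.003 and 1.02 against 1.04, 0.959, 0.910 and 0.872. A drop is therefore smaller, or absent, as a plain share. Since cycling cells held more UMIs, a lower level did not always mean fewer UMIs per cell: the log2 ratio of UMIs per cell had a median of 0.57 over all genes tested.

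The rule's own genes are given as a description. The 8 cycle genes were at 0 in noncycling cells by construction. In cycling cells Top2a, the DNA topoisomerase that untangles sister chromosomes, stood at 372, 387, 469 and 474 normalised CPM, Ccna2 (cyclin A2) at 293, 366, 406 and 409.8 and Aurkb, the kinase of the chromosomal passenger complex, at 49.9, 45.1, 50.9 and 47.8. Of the 5 muscle genes, Tnnt2 (cardiac troponin T) was at 8676, 9956, 9874 and 10946 normalised CPM in noncycling cells and 5723, 7195, 7464 and 7446 in cycling cells, and Ttn (titin) was at 2394, 2713, 2615 and 2952 normalised CPM in noncycling cells and 1849, 2284, 2206 and 2172 in cycling cells. Every library had less of both in its cycling sum, although all cells of both classes had passed the same muscle score.

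Because the cells were divided by 8 genes of the division program, other genes of that program had to differ, and they are described by size without p-values. Counts of higher and lower division genes below are calls at an adjusted p under 0.05. The rule largely fixed these calls in advance, so the counts are a description and not a result of the test. Of 550 tested genes under cell cycle terms outside the rule, 463 (84.2%) were higher and 22 (4.0%) lower, with a median log2 fold change of 1.746, against 25.5% and 28.4% over all genes. All 30 genes of replication licensing and DNA synthesis were higher with a median log2 fold change of 1.79, as were all 18 mitotic cyclins and their controls with 4.32, all 21 genes of the kinetochore and spindle checkpoint with 5.32 and all 21 spindle motors and microtubule proteins with 5.64.

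**Figure D2:**
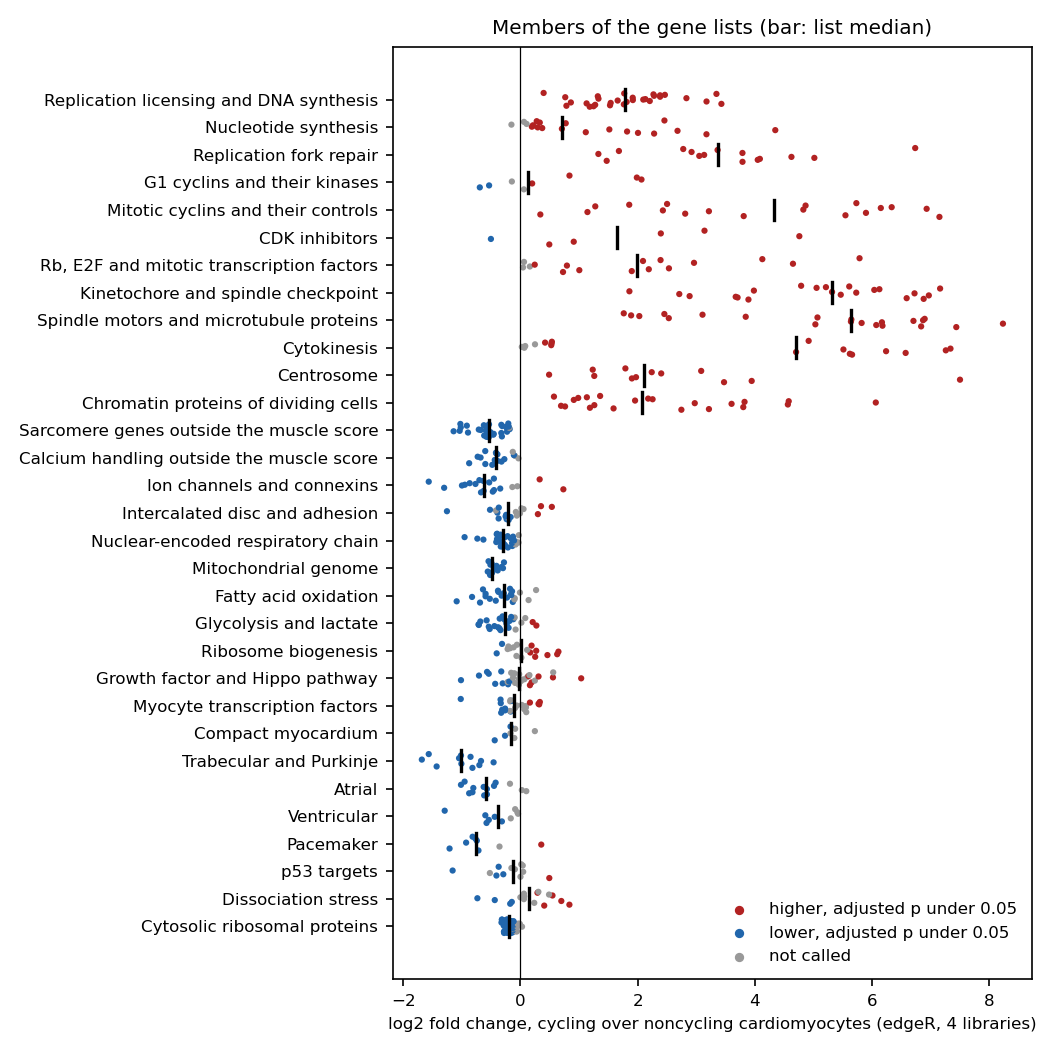
Log2 fold change of cycling over noncycling cardiomyocytes (horizontal axis) for each tested member of the gene lists (rows), coloured by the edgeR call, with a bar at the list median. Division lists lie right of 0, with medians up to 5.64 in spindle motors, and contractile, conduction and energy lists lie left of it, down to -1.01 in trabecular and Purkinje genes.

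Among the replication genes, Mcm5, a subunit of the helicase that unwinds origins, was at 9.83, 8.52, 13.1 and 9.91 normalised CPM in noncycling cells and 29.6, 26.7, 33.5 and 29.6 in cycling cells, a log2 fold change of 1.53 ± 0.080 (2.89-fold). Pcna, the clamp that holds DNA polymerase on its template, was at 11.7, 7.99, 16.4 and 16.8 normalised CPM in noncycling cells and 40.5, 32.04, 71.98 and 87.3 in cycling cells (2.10 ± 0.081). The sums of the classes did not overlap for either gene, as was so with cycling sums above for 15.1% of all genes tested. Larger differences were found in Cdc45, the helicase's activator (3.18 ± 0.14), in Chaf1a, which loads histones on new DNA (2.47 ± 0.13), and in Uhrf1, which guides maintenance of DNA methylation, at 3.29, 4.09, 9.55 and 6.03 normalised CPM in noncycling cells and 40.5, 56.1, 65.5 and 72.1 in cycling cells (3.34 ± 0.12). The smallest difference of the 30 was that of Slbp, the histone mRNA binding protein (0.40 ± 0.056).

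Nucleotide synthesis divided by step. The enzymes of deoxynucleotide supply were higher: Rrm2, the regulated subunit of ribonucleotide reductase, was at 9.07, 12.7, 26.8 and 16.5 normalised CPM in noncycling cells and 181, 309.5, 402 and 433 in cycling cells (4.35 ± 0.093, 20.4-fold), its partner Rrm1 differed by 2.68 ± 0.066 and the thymidine kinase Tk1 by 3.17 ± 0.063. Purine synthesis enzymes moved little, with Paics at 0.20 ± 0.057, Gart at 0.21 ± 0.074 and Atic at -0.15 ± 0.094. Of the 21 genes 18 were higher and none lower. All 15 genes of fork repair were higher (median 3.36). Pbk, a mitotic kinase that the list also holds, differed most in it (6.73 ± 0.11).

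Among mitotic regulators, Ccnb1, cyclin B1, was at 1.67, 1.65, 2.60 and 1.22 normalised CPM in noncycling cells and 195, 278, 288 and 288 in cycling cells, a 142-fold difference (7.15 ± 0.095). Plk1, the polo kinase that drives entry into mitosis, was at 0.540, 0.528, 0.622 and 0.431 normalised CPM in noncycling cells and 57.03, 63.8, 75.3 and 71.1 in cycling cells (6.93 ± 0.11), and Cdc20, the activator of the anaphase promoting complex, was at 1.94, 2.64, 3.45 and 1.80 normalised CPM in noncycling cells and 158, 201, 239.8 and 205 in cycling cells (6.33 ± 0.081). Noncycling cells thus held almost none of the 3 transcripts, while the intermediate class lay between, with means over libraries of 26.2, 3.57 and 19.8 normalised CPM.

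Kinetochore genes, which attach chromosomes to the spindle, included Cenpe, a kinesin, at 1.13, 0.594, 0.848 and 0.934 normalised CPM in noncycling cells and 96.1, 115, 114 and 97.9 in cycling cells (6.88 ± 0.11), Sgol2a, a protector of centromeric cohesion (7.16 ± 0.12), and Ndc80, the microtubule-binding subunit (6.97 ± 0.17), which had 1 UMI in the noncycling sum of the AVN/His library and 2 in that of the right ventricular library. Among spindle genes Nusap1, which bundles spindle microtubules, was at 1.24, 1.06, 1.58 and 0.934 normalised CPM in noncycling cells and 119, 133, 171 and 156 in cycling cells (6.87 ± 0.090), Ckap2l, also of the spindle, differed by 6.90 ± 0.089, and the tubulin depolymerase Kif2c differed by 7.44 ± 0.16 on 1 to 7 noncycling UMIs per library. The general tubulin genes of the same list differed less, Tuba1b by 1.89 ± 0.084 and Tubb5 by 2.03 ± 0.089. All 12 centrosome genes were higher (median 2.11), led by Nek2, a kinase that splits the centrosome pair (7.498 ± 0.14), and Plk4, which starts centriole duplication (3.47 ± 0.11).

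Cytokinesis genes fell into separate ranges. The 9 genes specific to the dividing cell's midzone and midbody ran from 4.70 ± 0.21 (Kif14) to 7.34 ± 0.13 (Cep55, which recruits the abscission machinery), with Prc1, the antiparallel microtubule bundler of the midzone, at 1.46, 1.72, 2.09 and 1.29 normalised CPM in noncycling cells and 221, 262, 268 and 272 in cycling cells (7.26 ± 0.080). Ect2, the exchange factor that activates RhoA at the cleavage furrow, was at 2.38, 0.792, 2.04 and 1.65 normalised CPM in noncycling cells and 83.6, 82.8, 92.6 and 98.02 in cycling cells (5.66 ± 0.12). The furrow's general cytoskeleton moved by far less: Rhoa itself by 0.07 ± 0.041 and Sept2 by 0.03 ± 0.044, neither of which passed the test, and the nonmuscle myosins Myh9 by 0.42 ± 0.11 and Myh10 by 0.54 ± 0.046. In all, 13 of the 17 genes were higher and none lower.

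All 22 chromatin proteins of dividing cells were higher, with a median of 2.07. The condensin subunits, which compact chromosomes, led: Smc2 was at 8.86, 6.40, 9.89 and 7.61 normalised CPM in noncycling cells and 169, 194, 220.2 and 199.8 in cycling cells (4.56 ± 0.078), Ncaph differed by 4.58 ± 0.12 and Ncapg by 6.06 ± 0.14. The nuclear export factor Ran (1.36 ± 0.038) and the nucleosome-binding Hmgn1 (0.69 ± 0.038) lay at the low end.

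Promoter sequence is shown for mitotic genes because windows of several mitotic lists held a pair of short motifs more often than all windows did. The motifs are the cell cycle genes homology region (CHR, searched as TTTGAA) bound by the DREAM and MuvB complexes, and the CCAAT box bound by NF-Y. RefSeq start-site windows of GRCm38.p6 (250 bases before to 50 after the start, the first listed for each gene) matched 9398 of the 11949 tested genes, and motifs were searched on both strands. The 4 named genes with the largest fold change whose upstream part held both motifs are printed 5' to 3' on the gene's strand, with matches to either strand in capitals. Ckap2l, a spindle protein, has the window chr2:129297213-129297354 (minus strand), Cdc20 has chr4:118437344-118437416 (minus), Ncapg has chr5:45669729-45669920 (plus) and Ect2 has chr3:27153909-27154012 (minus).
Ckap2l: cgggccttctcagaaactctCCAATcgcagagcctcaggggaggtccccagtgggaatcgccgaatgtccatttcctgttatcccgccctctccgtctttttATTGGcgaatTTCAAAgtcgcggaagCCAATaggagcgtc
Cdc20: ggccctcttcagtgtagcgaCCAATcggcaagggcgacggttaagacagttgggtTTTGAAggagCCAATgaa
Ncapg: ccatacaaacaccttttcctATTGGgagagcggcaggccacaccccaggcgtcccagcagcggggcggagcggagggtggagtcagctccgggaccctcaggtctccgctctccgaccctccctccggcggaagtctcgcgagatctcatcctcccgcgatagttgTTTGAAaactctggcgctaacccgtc
Ect2: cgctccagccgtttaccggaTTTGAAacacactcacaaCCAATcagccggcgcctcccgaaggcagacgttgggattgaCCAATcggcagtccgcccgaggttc

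Both motifs were found together in 5.06% of the 9398 windows, in 8.66% of the 2425 windows of genes higher in cycling cells and in 3.79% of the 2663 windows of lower genes. Among higher genes outside the cell cycle terms the pair was in 5.65% of 2037 windows, near the share of all windows. By list, the pair was in 10 of 18 spindle gene windows (55.6%), 8 of 15 of mitotic cyclins and their controls (53.3%), 9 of 19 of the chromatin list (47.4%), 7 of 18 of kinetochore genes (38.9%) and 5 of 16 of cytokinesis genes (31.2%). It was in 4 of 25 windows of replication genes (16.0%), in 1 of 28 of sarcomere genes (3.57%) and in none of the 9 centrosome, 20 nucleotide synthesis and 9 fork repair windows. With or without the other, the CHR was in 11.6% of all windows and the CCAAT box in 39.3%. Matches are descriptions of letters and were not tested.

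Replication genes were read for a different motif, the E2F site (searched as TTGGCGC or TTCGCGC, whose reverse complements can overlap each other and the CCAAT box). It was in 8 of their 25 windows (32.0%), in 4 of 20 nucleotide synthesis windows (20%), in 7.61% of all windows, 11.3% of those of higher genes, 5.22% of those of lower genes and 0 of 28 sarcomere gene windows. The site was not particular to replication genes, with 6 of 19 windows of the chromatin list (31.6%) and 2 of 9 of fork repair (22.2%). Cytokinesis had it in 18.8%, spindle genes in 16.7%, mitotic cyclins and their controls in 13.3%, centrosome genes in 11.1% and kinetochore genes in none. Mcm5 is shown as the named replication gene with such a site upstream, at chr8:75109325-75109386 (plus strand, GRCm38.p6, RefSeq), with its 3 matches in capitals, of which the last 2 overlap.
Mcm5: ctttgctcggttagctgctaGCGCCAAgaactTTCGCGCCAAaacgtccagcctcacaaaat

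The factors behind these programs differed by member. Foxm1, the forkhead factor of mitotic genes, was at 0.702, 0.528, 0.622 and 0.718 normalised CPM in noncycling cells and 29.6, 34.2, 38.4 and 43.5 in cycling cells (5.79 ± 0.13), and Mybl2, which encodes B-Myb, differed by 4.13 ± 0.23. The atypical repressors of the E2F family were higher as well, E2f7 by 4.65 ± 0.18 and E2f8 by 2.96 ± 0.24. E2f8 in noncycling cells was at 11.6 normalised CPM in the SAN library and at 2.01 to 2.71 in the other 3, so its ratio was smaller in the SAN library. The activator E2f1 differed by 2.19 ± 0.099 and E2f2 by 2.53 ± 0.24, while E2f3 (0.05 ± 0.11) and E2f4 (0.16 ± 0.078) did not pass the test. Of the pocket proteins, Rbl1 differed by 1.90 ± 0.095, Rbl2 by 1.01 ± 0.096 and Rb1 by 0.73 ± 0.095. In all, 13 of 16 were higher and none lower.

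Cyclins and kinases of the G1 phase did not move as one. The E-type cyclins, which start replication, were higher: Ccne1 was at 5.56, 3.04, 3.67 and 4.02 normalised CPM in noncycling cells and 15.2, 13.4, 18.4 and 22.05 in cycling cells (2.07 ± 0.14), and Ccne2 differed by 1.99 ± 0.12. The D-type cyclins, which answer growth signals and phosphorylate Rb early, were not. Ccnd2 was at 211, 169.6, 213 and 131 normalised CPM in noncycling cells and 171, 116, 105 and 67.8 in cycling cells and was lower in each library (-0.69 ± 0.084, adjusted p = 2.25e-06, edgeR), although the classes overlapped across libraries. Ccnd3 was at 173, 208, 232 and 198 normalised CPM in noncycling cells and 115, 144, 164 and 138 in cycling cells with no overlap (-0.53 ± 0.042, adjusted p = 8.21e-09). Over all genes, 10.4% were likewise below without overlap. Ccnd1 was at 12.4, 16.5, 14.1 and 13.2 normalised CPM in noncycling cells and 14.4, 13.4, 11.8 and 20.4 in cycling cells and did not differ beyond its spread (0.06 ± 0.13, adjusted p = 0.706), but without cells holding markers of other types it was lower (-0.69, adjusted p = 1.48e-04), as it was at matched depth (-0.37, adjusted p = 0.0171). Their partner kinases Cdk4 (0.20 ± 0.053) and Cdk6 (-0.14 ± 0.060) moved little, and Cdk2, the partner of the E cyclins, was higher (0.84 ± 0.093).

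Inhibitors of cyclin-dependent kinases were for the most part higher in the cells that cycled. Cdkn2c, which encodes p18, was at 1.998, 3.10, 3.62 and 2.87 normalised CPM in noncycling cells and 71.3, 80.2, 75.2 and 89.1 in cycling cells (4.76 ± 0.095, 27.1-fold), and Cdkn2d, which encodes p19, was at 31.97, 51.2, 48.1 and 43.7 normalised CPM in noncycling cells and 178, 246, 256 and 237 in cycling cells (2.40 ± 0.049). Both belong to the INK4 inhibitors of Cdk4 and Cdk6. Cdkn3, a phosphatase of Cdk1 and Cdk2, differed by 3.14 ± 0.10. Cdkn1b, which encodes p27, was at 24.2, 21.7, 20.1 and 24.1 normalised CPM in noncycling cells and 38.9, 42.5, 42.4 and 45.1 in cycling cells (0.91 ± 0.069) and in the intermediate class at 20.3, 24.5, 24.3 and 23.2. Intermediate cells therefore had p27 levels close to those of noncycling cells. Cdkn1a, which encodes p21, was higher by less (0.49 ± 0.069), and Cdkn1c, which encodes p57, was the 1 inhibitor that was lower, at 124, 116, 95.7 and 66.6 normalised CPM in noncycling cells and 106, 57.1, 77.1 and 46.8 in cycling cells (-0.502 ± 0.089, adjusted p = 1.31e-04).

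**Figure D3:**
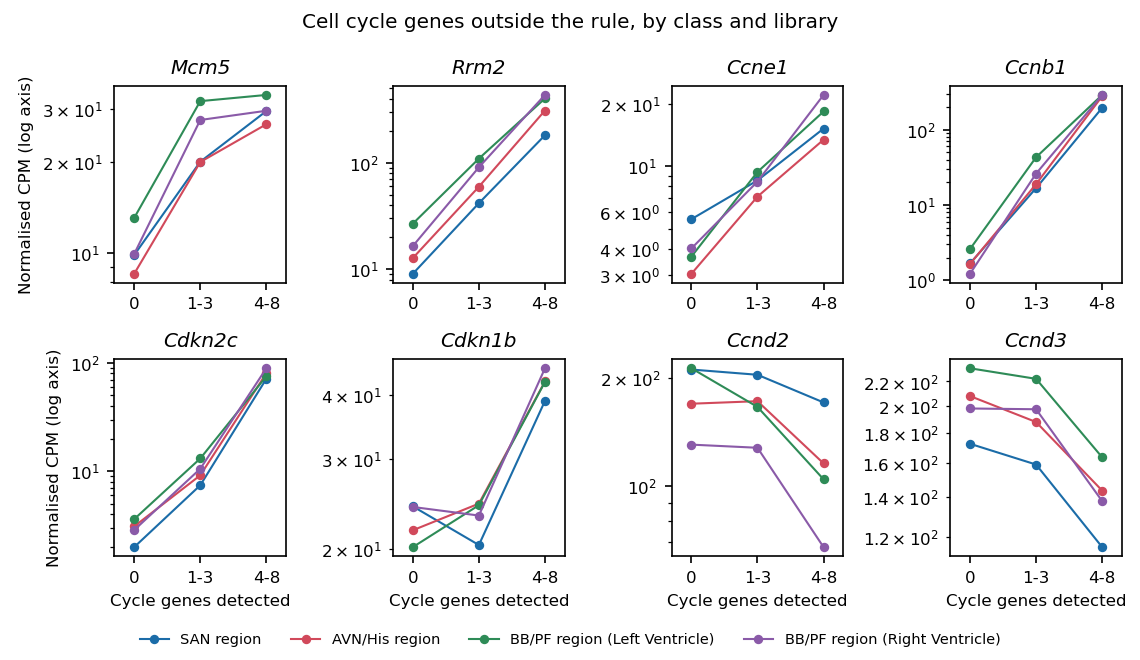
Normalised CPM (vertical log axes) of 8 cell cycle genes outside the rule by number of rule genes detected (horizontal axes: 0, noncycling; 1-3, intermediate; 4-8, cycling), 1 line per library. Mcm5, Rrm2, Ccne1, Ccnb1 and Cdkn2c climbed over the 3 classes in each library, Cdkn1b was high in the cycling class only, and Ccnd2 and Ccnd3 were lowest there.

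Contractile genes were for the most part at lower levels in cycling cells. Of 33 tested sarcomere genes outside the score, 32 were lower and none higher (median -0.53), against 28.4% of all genes lower. Tcap, the titin cap of the Z-disc, was at 299, 351, 359.8 and 311 normalised CPM in noncycling cells and 134, 185, 176 and 152 in cycling cells (-1.03 ± 0.045, 2.05-fold lower, adjusted p = 1.84e-12). Synpo2l, an actin-binding protein of the Z-disc, was at 365, 297, 310.5 and 323 normalised CPM in noncycling cells and 175, 159.9, 151 and 151 in cycling cells (-1.02 ± 0.044, adjusted p = 2.09e-12). The cycling sums of either gene were below every noncycling sum, as was so for 10.4% of all genes tested. Myom2, an M-band protein, was at 180.1, 56.7, 29.96 and 74.5 normalised CPM in noncycling cells and 105, 19.7, 11.3 and 32.9 in cycling cells (-1.14 ± 0.091, adjusted p = 1.06e-08), lower in each library with overlap across libraries.

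Thick and thin filament genes moved by less. Actc1, cardiac actin, was at 12273, 13079, 12648 and 12881 normalised CPM in noncycling cells and 8415, 11024, 10884 and 10518 in cycling cells (-0.32 ± 0.053, adjusted p = 6.01e-05). Among the troponin I genes the fetal Tnni1 differed by -0.59 ± 0.042 and the adult Tnni3 by -0.46 ± 0.042. Myh7, the fetal ventricular myosin, was at 406, 3720.0, 4197 and 4884 normalised CPM in noncycling cells and 241, 2717, 3267 and 3187 in cycling cells (-0.54 ± 0.053, adjusted p = 1.81e-07). Mypn, a Z-disc protein, was the member that did not pass the test (-0.19 ± 0.081, adjusted p = 0.0577). The sarcomere list's balance held with total-UMI scaling (0 members were higher and 25 lower) and at matched depth, where 32 were lower. In UMIs per cell, its median log2 ratio was 0.07, so about as many sarcomere UMIs were counted per cell in both classes. The rule favours deep cells, so this ratio does not compare the contents of cells. At matched depth the list's median log2 fold change was -0.52.

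Calcium handling followed the same direction, with 15 of 18 genes lower and none higher (median -0.41), against 28.4% and 25.5% over all genes. Hrc, a calcium-binding protein of the sarcoplasmic reticulum, was at 118, 73.01, 77.7 and 97.3 normalised CPM in noncycling cells and 67.3, 42.9, 53.3 and 55.6 in cycling cells (-0.73 ± 0.056, adjusted p = 6.20e-09). Slc8a1, the sodium-calcium exchanger, differed by -0.68 ± 0.070 (adjusted p = 3.17e-07), and Atp2a2, the calcium pump SERCA2, by -0.48 ± 0.046 (adjusted p = 1.08e-07). Its inhibitor Pln, phospholamban, differed by -0.60 ± 0.040, and sarcolipin, Sln, which is chiefly atrial, was at 6499, 303, 1.36 and 1.08 normalised CPM in noncycling cells and 3871, 147, 1.05 and 0.447 in cycling cells. Sln was low in both classes outside the SAN and AVN/His libraries, with 3 cycling and 15 noncycling UMIs in the right ventricular library (ratio 0.415, 95% counting interval 0.077 to 1.47).

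Genes that mark the trabecular myocardium and the Purkinje network differed most among the cardiac lists. All 11 were lower (median -1.01), against 28.4% of all genes tested. Of the 11, 10 were lower in each library, as were 32.3% of all genes. Nppb, which encodes brain natriuretic peptide, was at 912, 327, 409 and 610.4 normalised CPM in noncycling cells and 385, 99.2, 163 and 219.9 in cycling cells (-1.43 ± 0.059, 2.69-fold lower, adjusted p = 1.00e-12). Nppa, atrial natriuretic peptide, was at 22847, 667, 851 and 803 normalised CPM in noncycling cells and 13957, 312, 468 and 525 in cycling cells (-0.82 ± 0.061, adjusted p = 4.06e-09). Levels of Nppa in the SAN library, which is atrial tissue, were over 10-fold those of the other libraries in both classes, and the direction was shared by all 4.

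Cacna2d2 and Cpne5 of that list had their widest ratios in the ventricular libraries, on low counts. Their levels were highest in the SAN library, so they did not mark Purkinje cells alone here. Cacna2d2, a calcium channel subunit, was at 67.2, 26.9, 13.3 and 7.32 normalised CPM in noncycling cells and 31.6, 8.36, 1.53 and 1.64 in cycling cells (-1.56 ± 0.17, adjusted p = 4.95e-07). It had 16 cycling UMIs in the left ventricular library (against 236) and 11 in the right (against 102). Cpne5, a copine of the conduction system, was at 46.4, 23.6, 5.71 and 3.02 normalised CPM in noncycling cells and 21.4, 5.18, 0.287 and 0.298 in cycling cells (-1.68 ± 0.21, adjusted p = 2.48e-06). Its cycling sums rested on 3 UMIs in the left ventricular library (against 101, ratio 0.0502, 95% counting interval 0.0102 to 0.151) and 2 in the right (against 42, ratio 0.0988, 0.0116 to 0.38). Gja5, the fast-conducting connexin 40, differed by -0.70 ± 0.11 (adjusted p = 6.04e-05), and the transcription factors Irx3 and Etv1 by -1.01 ± 0.15 (adjusted p = 2.94e-05) and -0.46 ± 0.067 (adjusted p = 2.00e-05). In UMIs per cell the list's median log2 ratio was -0.52, below 0, unlike that of the sarcomere list. Without cells that held other types' markers or doublet scores over 0.2, an alternative added after the data were seen, all 11 were again lower (median -0.98).

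**Figure D4:**
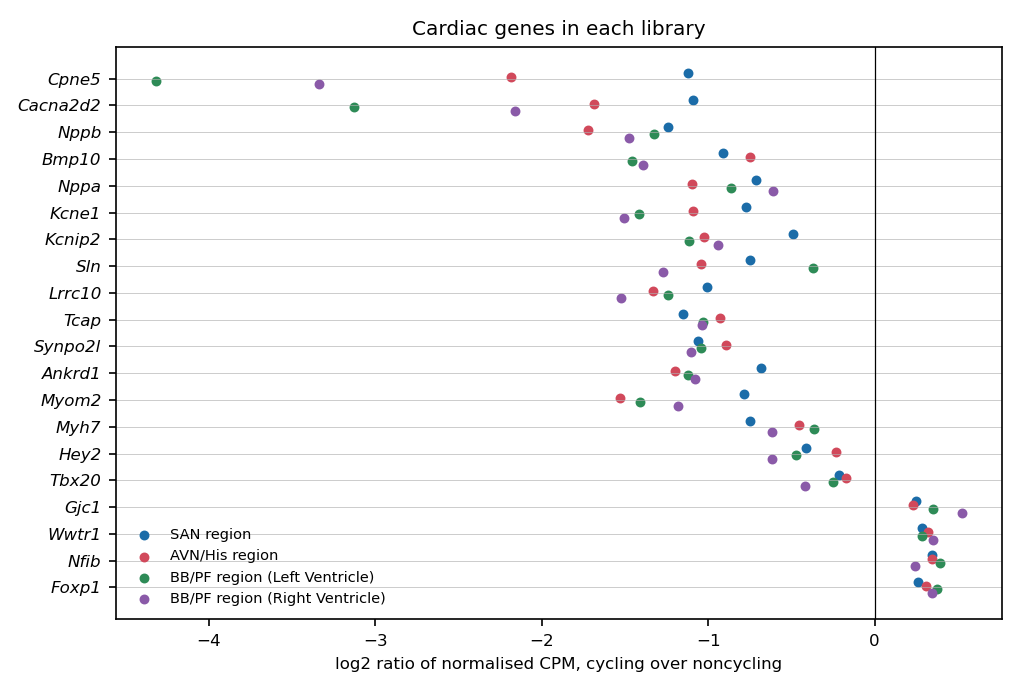
Log2 ratio of normalised CPM, cycling over noncycling (horizontal axis), for 20 cardiac genes (rows), 1 point per library. All 4 points of each gene from Cpne5 to Tbx20 lie left of 0, with those of Cpne5 and Cacna2d2 furthest left in the ventricular libraries, and all 4 points of Gjc1, Wwtr1, Nfib and Foxp1 lie right of it.

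Of 7 compact myocardium genes 3 were lower and none higher (median -0.17), against 28.4% and 25.5% over all genes tested. Hey2, a Notch-related repressor of the compact layer, was at 0.702, 96.2, 94.6 and 128 normalised CPM in noncycling cells and 0.528, 82.1, 68.2 and 83.9 in cycling cells (-0.44 ± 0.066, adjusted p = 2.52e-05). Tbx20 differed by -0.26 ± 0.045 (adjusted p = 1.06e-04) and Tgfb2 by -0.17 ± 0.064 (adjusted p = 0.0355, which did not hold without the AVN/His or the right ventricular library, at 0.285 and 0.0930), while Prdm16 (-0.17 ± 0.13, adjusted p = 0.304) and Mycn (-0.10 ± 0.13, adjusted p = 0.52) did not pass the test. With total-UMI scaling 1 of the 7, Hey2, was lower and the median was -0.0041. The difference between the trabecular and the compact list was not itself tested.

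Ion channels and connexins were lower in 15 of 19 cases and higher in 2 (median -0.63), against 28.4% and 25.5% over all genes. Without cells that held other types' markers or high doublet scores, 15 of 18 were lower and 1 higher. Kcne1, a subunit of the slow potassium channel, was at 9.02, 303, 215 and 234 normalised CPM in noncycling cells and 5.28, 142, 80.4 and 82.2 in cycling cells (-1.30 ± 0.071, adjusted p = 5.04e-11), and Kcnip2, of the transient outward current, was at 2.59, 17.2, 22.2 and 28.3 normalised CPM in noncycling cells and 1.85, 8.48, 10.2 and 14.7 in cycling cells (-0.996 ± 0.100, adjusted p = 2.00e-07). Gja1, the working connexin 43, differed by -0.63 ± 0.050 (adjusted p = 9.48e-09), whereas Gjc1, connexin 45, was higher, at 30.1, 41.2, 28.8 and 27.4 normalised CPM in noncycling cells and 35.8, 48.3, 36.7 and 39.3 in cycling cells (0.33 ± 0.064, adjusted p = 3.24e-04). The 3 connexins of the list thus did not share a direction. Kcnj8, the other higher member (0.73 ± 0.20), is also a mural marker, and mural markers were among those higher in cycling cells.

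Most chamber and pacemaker genes were lower in each list, against 28.4% lower and 25.5% higher over all genes tested. Of the atrial genes 11 of 14 were lower (median -0.59), with Myl7 at 30827, 2714, 536 and 316 normalised CPM in noncycling cells and 21374, 1470.4, 366 and 226 in cycling cells (-0.62 ± 0.058, adjusted p = 9.40e-08) and Bmp10 at 328, 6.93, 11.02 and 12.5 normalised CPM in noncycling cells and 174, 4.12, 4.01 and 4.77 in cycling cells (-1.01 ± 0.087, adjusted p = 2.87e-08). Of the ventricular genes 6 of 10 were lower (median -0.38), with Lrrc10, a cardiac leucine-rich repeat protein, at 33.9, 72.7, 75.3 and 74.2 normalised CPM in noncycling cells and 16.9, 28.9, 31.8 and 25.8 in cycling cells (-1.29 ± 0.071, adjusted p = 5.43e-11) and no overlap. The same lack of overlap was found in 10.4% of all genes. Myl2 was at 44.8, 14245, 17638 and 17971 normalised CPM in noncycling cells and 10.96, 11184, 13585 and 12233 in cycling cells (-0.58 ± 0.12, adjusted p = 6.68e-04), and was lost as a call with the DESeq2 Wald test. Of 8 pacemaker genes 6 were lower and 1 higher (median -0.753). Shox2, a factor of the sinus node, was at 67.6, 3.17, 0.113 and 0.0718 normalised CPM in noncycling cells and 41.6, 1.77, 0.0956 and 0 in cycling cells (-0.71 ± 0.12, adjusted p = 5.55e-05), so its values were carried by the SAN library, and Tbx18 was the higher one (0.36 ± 0.086, adjusted p = 0.00199), a call that did not hold at matched depth (0.20).

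**Figure D5:**
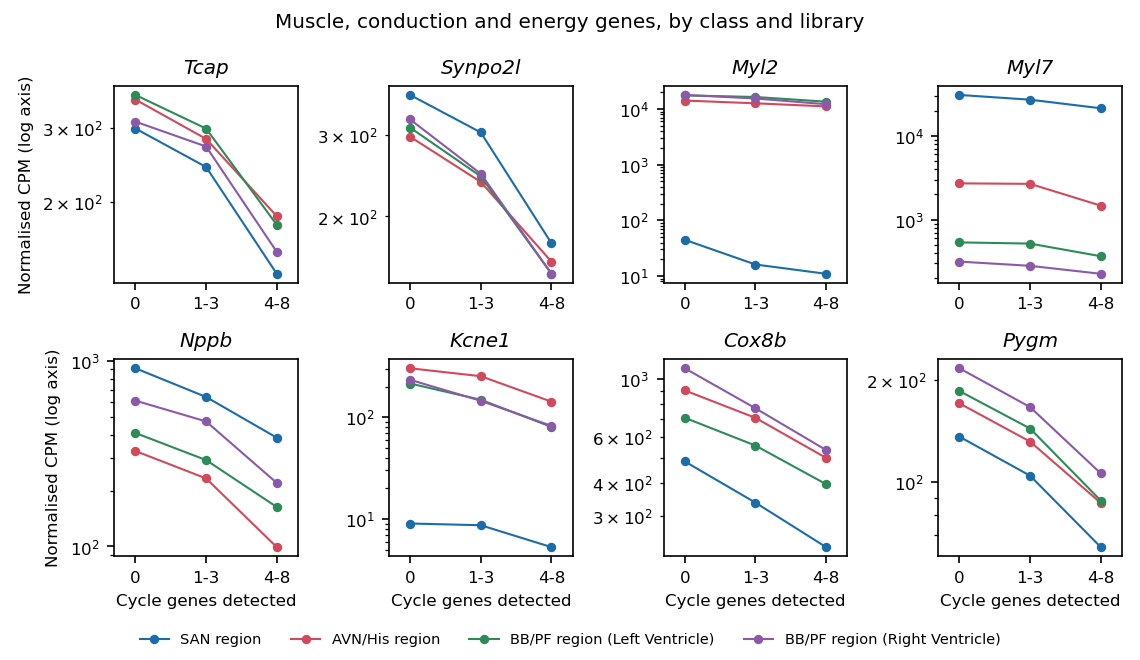
Normalised CPM (vertical log axes) of 8 muscle, conduction and energy genes by number of rule genes detected (horizontal axes: 0, noncycling; 1-3, intermediate; 4-8, cycling), 1 line per library. Each gene was lower in the cycling than in the noncycling class of every library, and Myl2 and Myl7 show the atrial identity of the SAN library at both ends.

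Genes of the intercalated disc were mixed, with 10 of 20 lower and 3 higher (median -0.20), against 28.4% and 25.5% over all genes. Under total-UMI scaling 6 members were higher and 4 lower. Itgb1bp2 (melusin), an integrin-binding muscle protein, was at 96.3, 101, 103 and 122 normalised CPM in noncycling cells and 40.4, 44.1, 45.4 and 46.03 in cycling cells (-1.252 ± 0.054, adjusted p = 1.84e-12), the largest difference of the list. Ctnnb1, beta-catenin, was higher in each library (0.30 ± 0.041, adjusted p = 8.05e-06). Vim, vimentin, was at 254, 296, 287 and 219 normalised CPM in noncycling cells and 407, 392, 383 and 346 in cycling cells (0.54 ± 0.050, adjusted p = 8.18e-08), and Actb, cytoplasmic actin, was higher (0.35 ± 0.073). Vim and Actb are also abundant in fibroblasts, and without cells that held other types' markers Actb was lower instead (-0.15, adjusted p = 0.0104).

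Energy metabolism genes were mostly at lower levels in cycling cells. Over all genes tested, 28.4% were lower and 25.5% higher. All 13 tested genes of the mitochondrial genome were lower (median -0.48), with mt-Cytb at 12554, 19063, 18247 and 24337 normalised CPM in noncycling cells and 8087, 14258, 13329 and 15370.0 in cycling cells (-0.54 ± 0.051, adjusted p = 9.36e-08). Of the nuclear-encoded respiratory chain 25 of 29 were lower and none higher (median -0.29). The muscle isoforms of cytochrome oxidase led: Cox8b was at 484, 903, 710.2 and 1096 normalised CPM in noncycling cells and 228, 499, 397 and 535 in cycling cells (-0.95 ± 0.046, adjusted p = 1.09e-11), Cox7a1 differed by -0.73 ± 0.043 (adjusted p = 1.38e-10) and Cox6a2 by -0.63 ± 0.041 (adjusted p = 6.56e-10). The ubiquitous isoforms Cox7a2 and Cox8a, chosen after their values were seen, differed by -0.17 ± 0.042 and -0.27 ± 0.040. Under total-UMI scaling 18 of the 29 were lower and 3 higher.

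Of the fatty acid oxidation genes 18 of 23 were lower and none higher (median -0.28), against 28.4% and 25.5% over all genes. Fabp3, the heart fatty acid binding protein, was at 458, 1256, 1234 and 1484 normalised CPM in noncycling cells and 302, 819, 773 and 821 in cycling cells (-0.69 ± 0.045, adjusted p = 7.73e-10), and Acads, the short-chain acyl-CoA dehydrogenase, was at 62.9, 119, 143 and 130.2 normalised CPM in noncycling cells and 38.9, 67.02, 77.6 and 71.8 in cycling cells (-0.82 ± 0.050, adjusted p = 2.32e-10). Of the glycolysis genes 19 of 25 were lower and 2 higher (median -0.27), against the same shares over all genes. The largest differences were those of the aldolases Aldoc (-0.71 ± 0.12, adjusted p = 7.34e-05) and Aldoa (-0.71 ± 0.042, adjusted p = 1.61e-10). Phosphoglycerate mutase Pgam2 differed by -0.68 ± 0.042 (adjusted p = 3.19e-10) and Pgam1 by 0.21 ± 0.040 (adjusted p = 2.71e-04, though by 0.04 and without a call at matched depth), and phosphofructokinase Pfkm by -0.54 ± 0.051 (adjusted p = 1.09e-07) and Pfkp by 0.27 ± 0.045 (adjusted p = 6.46e-05). Total-UMI scaling left 11 of the 23 fatty acid oxidation genes lower and 3 higher, and 13 of the 25 glycolysis genes lower and 4 higher.

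Cytosolic ribosomal proteins, 80 genes, were the clearest case of dependence on scaling: 70 were lower and none higher (median -0.19), while under total-UMI scaling 8 members were higher and 11 lower (median -0.03). No direction is therefore given for them. Ribosome biogenesis genes were mixed, with 7 of 17 higher and 2 lower, against 25.5% and 28.4% over all genes. Under total-UMI scaling 9 of these were higher and none lower. Dkc1, the pseudouridine synthase of the nucleolus, was at 14.3, 18.8, 20.1 and 18.2 normalised CPM in noncycling cells and 26.7, 27.9, 30.01 and 27.1 in cycling cells (0.65 ± 0.076, adjusted p = 1.46e-06), and Nop58, a box C/D particle protein, differed by 0.63 ± 0.057 (adjusted p = 5.40e-08). Gnl3, nucleostemin, was lower (-0.31 ± 0.072, adjusted p = 0.00143), but its call did not hold under total-UMI scaling (-0.15).

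Of 31 growth factor and Hippo pathway genes 6 were higher and 9 lower (median -0.03), against 25.5% and 28.4% over all genes tested. Under total-UMI scaling 10 members were higher and 5 lower, and without cells that held other types' markers or high doublet scores 5 of 30 were higher and 12 lower. Receptors of growth signals differed slightly: Igf1r was at 82.1, 91.6, 85.5 and 100.03 normalised CPM in noncycling cells and 84.6, 107, 97.8 and 114 in cycling cells (0.16 ± 0.048, adjusted p = 0.00811), Erbb2, the coreceptor of neuregulin, was at 34.7, 22.05, 27.4 and 27.3 normalised CPM in noncycling cells and 38.7, 27.1, 32.4 and 28.5 in cycling cells (0.19 ± 0.065, adjusted p = 0.0193), and Insr, the insulin receptor, was lower (-0.43 ± 0.067, adjusted p = 3.59e-05). The calls of Igf1r and Erbb2 were lost without the AVN/His library (adjusted p = 0.0642 and 0.108) or the left ventricular library (0.0607 and 0.102). Of the Hippo effectors, Wwtr1 (TAZ) was higher in each library, at 49.9, 39.7, 36.6 and 41.3 normalised CPM in noncycling cells and 60.9, 49.7, 44.6 and 52.6 in cycling cells (0.31 ± 0.054, adjusted p = 1.09e-04), while Yap1 did not pass the test (0.12 ± 0.056, adjusted p = 0.0813), though it did without the SAN library (0.17, adjusted p = 0.0268). Ctgf, which YAP and TAZ are known to activate, was lower (-0.71 ± 0.075, adjusted p = 4.15e-07), and Cyr61, another such gene, did not pass (0.15 ± 0.098, adjusted p = 0.193). Vegfa was lower in each library (-0.57 ± 0.054, adjusted p = 9.50e-08).

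Among myocyte transcription factors 4 of 24 were higher and 9 lower (median -0.11), against 25.5% and 28.4% over all genes. Under total-UMI scaling 10 members were higher and 4 lower. Nkx2-5 (-0.33 ± 0.042, adjusted p = 4.35e-06) and Mef2a (-0.31 ± 0.041, adjusted p = 6.19e-06) were lower, whereas Gata4 (0.10 ± 0.059, adjusted p = 0.159) and Mef2c (0.07 ± 0.048, adjusted p = 0.263) did not pass the test. Ankrd1, a stretch-responsive repressor that binds titin, was at 3266, 1648, 803 and 1318 normalised CPM in noncycling cells and 2038, 719, 369 and 623 in cycling cells (-1.02 ± 0.063, adjusted p = 3.36e-10). Foxp1, a forkhead factor of dividing fetal myocardium, was at 67.2, 69.6, 71.1 and 67.4 normalised CPM in noncycling cells and 80.5, 86.1, 92.05 and 85.5 in cycling cells (0.32 ± 0.048, adjusted p = 2.28e-05), without overlap. For 15.1% of all genes the cycling sums likewise lay above every noncycling sum. Meis1, known to restrain the postnatal cell cycle, did not pass (0.08 ± 0.061, adjusted p = 0.308), and its direction turned in thinned cells (-0.24).

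Of 12 targets of p53 1 was higher and 4 were lower, against 25.5% and 28.4% over all genes, and 6 were lower without cells that held other types' markers or high doublet scores. Total-UMI scaling gave 2 higher and 2 lower, so their balance depended on the scaling. Ccng1 (-0.41 ± 0.043, adjusted p = 3.85e-07) and Bax (-0.29 ± 0.058, adjusted p = 4.20e-04) were lower, the latter not under total-UMI scaling (-0.13), and Cdkn1a was higher as given above. Of 16 genes of the dissociation stress response 5 were higher and 4 lower, close to the 25.5% and 28.4% over all genes. Under total-UMI scaling 8 of them were higher and 2 lower. Fos was at 75.7, 27.9, 10.4 and 7.76 normalised CPM in noncycling cells and 99.4, 31.4, 14.1 and 14.9 in cycling cells (0.41 ± 0.084, adjusted p = 5.47e-04). Levels of Fos in the SAN library were highest in both classes, as were those of fibroblast markers. Without cells that held other types' markers, Fos was lower (-0.69, adjusted p = 6.62e-04), and Egr1, higher in the whole comparison (0.70 ± 0.13), did not pass (-0.07, adjusted p = 0.715). In the comparison that also dropped high doublet scores, 1 of 15 stress genes was higher and 9 were lower.

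Outside the cell cycle terms, 2574 of 11391 genes (22.6%) were higher and 3373 (29.6%) lower, and 926 (8.13%) and 1052 (9.24%) by at least 1.5-fold. The terms are a list of names and can miss genes of the division program, which had to differ. A low p of a higher gene below therefore does not place it outside the cell cycle. Of the 15 higher genes with the lowest p outside every list, Lsm2, an RNA-binding protein, was at 37.8, 51.03, 55.3 and 51.6 normalised CPM in noncycling cells and 115, 142, 162 and 137 in cycling cells (1.51 ± 0.049, adjusted p = 2.83e-14), and Lsm3 and Lsm5, of the same ring that binds U6 RNA, differed by 1.59 ± 0.060 (adjusted p = 2.75e-13) and 1.39 ± 0.055 (adjusted p = 4.48e-13). Snrpd1, a Sm core protein, was at 90.5, 107, 129 and 109 normalised CPM in noncycling cells and 198, 238, 275 and 246 in cycling cells (1.14 ± 0.042, adjusted p = 1.59e-13), Gemin6, of the complex that loads Sm cores, differed by 2.34 ± 0.087 (adjusted p = 2.01e-13), and Exosc8, an exosome subunit, by 1.89 ± 0.064 (adjusted p = 4.60e-14). For these 6 genes the cycling sums lay above every noncycling sum, as they did for 15.1% of all genes tested.

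The largest of these 15 were Arl6ip1, an endoplasmic reticulum shaping protein, at 55.95, 45.9, 47.8 and 46.7 normalised CPM in noncycling cells and 699, 734, 758 and 739.9 in cycling cells (3.90 ± 0.059, adjusted p = 5.92e-19), C330027C09Rik, also named Cip2a (4.87 ± 0.086, adjusted p = 5.08e-18), and Neurl1b, a ubiquitin ligase of the Notch pathway, at 2.05, 3.56, 4.75 and 4.38 normalised CPM in noncycling cells and 45.02, 69.6, 68.3 and 82.8 in cycling cells (4.17 ± 0.089, adjusted p = 5.62e-17). Stk17b, a kinase of the death-associated family, was at 5.02, 8.19, 6.56 and 7.76 normalised CPM in noncycling cells and 28.5, 45.9, 42.3 and 53.2 in cycling cells (2.62 ± 0.080, adjusted p = 1.18e-14). Its intermediate class was at 5.45, 6.89, 7.22 and 8.06, the level of noncycling cells. G2e3, a ubiquitin ligase named for the G2 phase of the cycle, behaved alike, with a mean of 5.95 in intermediate, 5.41 in noncycling and 54.4 in cycling cells (3.32 ± 0.089). The lamin B receptor Lbr (2.10 ± 0.079), the linker histone H1fx (2.29 ± 0.072), Nucks1 (1.78 ± 0.044) and Hdgf (1.20 ± 0.041) completed the 15.

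Of the 15 lower genes with the lowest p outside the lists, Pygm, the muscle glycogen phosphorylase, was at 136, 171, 186 and 217 normalised CPM in noncycling cells and 64.4, 86.9, 88.3 and 106 in cycling cells (-1.04 ± 0.045, adjusted p = 1.82e-12), and Ppp1r3c, which targets a phosphatase to glycogen, differed by -0.91 ± 0.049 (adjusted p = 4.48e-11). Mb, myoglobin, was at 49.1, 1235, 1281 and 2091 normalised CPM in noncycling cells and 25.6, 696, 753 and 1118 in cycling cells (-0.85 ± 0.043, adjusted p = 2.28e-11). Sgca, a sarcoglycan of the muscle membrane, was at 27.8, 30.3, 36.7 and 40.5 normalised CPM in noncycling cells and 9.37, 11.9, 13.7 and 13.9 in cycling cells (-1.46 ± 0.076, 2.76-fold lower, adjusted p = 2.50e-11), and Fndc5, the precursor of irisin, differed by -1.496 ± 0.081 (adjusted p = 4.60e-11). The ubiquitin ligase adaptors Asb2 (-0.95 ± 0.052, adjusted p = 4.89e-11) and Fbxl22 (-0.84 ± 0.044, adjusted p = 3.39e-11), both found in striated muscle, and Tcp11l2, at 28.7, 36.2, 39.01 and 36.9 normalised CPM in noncycling cells and 8.85, 13.4, 10.4 and 13.3 in cycling cells (-1.63 ± 0.086, adjusted p = 3.42e-11), were lower too.

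Among the remaining lower genes, Map1lc3a, an autophagy protein, was at 511, 486, 508 and 550.3 normalised CPM in noncycling cells and 296, 290.1, 298 and 308 in cycling cells (-0.78 ± 0.039, adjusted p = 1.59e-11), and Rrad, a small GTPase that inhibits calcium channels, at 198, 234, 253 and 165 normalised CPM in noncycling cells and 119, 122, 133 and 85.5 in cycling cells (-0.89 ± 0.047, adjusted p = 4.03e-11). Gpx3, a glutathione peroxidase, was at 2636, 466, 221 and 385 normalised CPM in noncycling cells and 1522, 243, 99.4 and 208 in cycling cells (-0.93 ± 0.051, adjusted p = 4.98e-11). Rnf207 (-1.11 ± 0.056), Fahd1 (-1.24 ± 0.053), Cited4 (-1.19 ± 0.062) and the antisense RNA Atcayos (-1.20 ± 0.047) were lower in each library, and the classes of all 4 did not overlap, as was so for 10.4% of all genes.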

How the data were processed

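Single-cell RNA sequencing counts of 4 libraries were used, 1 for each dissected heart region at embryonic day 16.5. The deposited matrices hold raw counts of UMIs per gene and cell barcode, which the authors made with Cell Ranger on mm10 (GRCm38). The software version is not given in the sources used here. Whether barcodes were filtered before deposit is not given in the sources used here. The matrices list 27998 genes. Cells of the 2 classes compared, defined in the report above, were summed per library to 8 sums of 6485074 to 19457567 UMIs. Genes were filtered with filterByExpr and tested with edgeR 4.0.16 (TMM, glmQLFit and glmQLFTest, library as block, 3 residual degrees of freedom), two-sided, with Benjamini-Hochberg adjustment over 11949 genes and a threshold of 0.05. Both sums of a pair come from the same library, which is where the pairing comes from. On simulated data for this comparison, with 50 of 11949 genes changed at each fold, the test recovered 46% of 1.25-fold, 70% of 1.5-fold, 90% of 2-fold and 100% of 4-fold changes, and 8 of 161 calls were false. Few genes changed there, in both directions, whereas 53.9% were called in the data. The simulated shares therefore do not cover the dependence on scaling. Scrublet (scanpy 1.11.5) scored doublets. No doublets were removed in the main comparison. DESeq2 1.42.0 and further cell filters served as alternatives.

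Named genes were the 13 genes of the rule, up to 3 higher and 3 lower members of each list with the largest changes among those called at a mean of at least 10 CPM, 25 genes that were always named, and the 15 higher and 15 lower genes with the lowest p outside the lists and cell cycle terms that moved the same way in 4 of 4 libraries. Other list members named in the text were chosen after their values were seen. The members of the classes and all lists were chosen with earlier results of these data known. Because cells were divided by 8 cycle genes, no p is given for the rule genes or for other genes of the division lists, except the D-type cyclins and the inhibitor p57. Counts at 3' ends do not separate near-identical paralogs or isoforms. Some list members are not reported here.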

Additional observations from a re-analysis of the deposited data

Results flagged for a closer look

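In 10 of the 167 named genes, the cycling-to-noncycling log2 ratio of 1 library lay far from those of the other 3, by a test that chance meets in about 1 in 20 groups. In the SAN library this was so for Myl2, with a ratio of -2.031 on 83 cycling and 829 noncycling UMIs against -0.35 to -0.56 in the other libraries, for Foxm1 (5.396, against 5.92 to 6.02), Tk1 (3.268), Arl6ip1 (3.643), Dkc1 (0.898), Bax (-0.032) and Rrad (-0.730). In the left ventricular BB/PF library it was so for Hrc (-0.543) and Foxo1 (-0.017), and in the AVN/His library for Myl7 (-0.884). All of these genes except Foxo1 kept 1 direction in all 4 libraries.

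Mycn, a growth regulator of fetal myocardium, ran in opposite directions, with a ratio of 0.587 in the SAN library (43 cycling and 70 noncycling UMIs) and -0.530 in the left ventricular library (118 and 288 UMIs). With 1 library per region this difference between regions was not tested.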

How the results depend on the processing

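Across 20 alternatives, 146 of 154 named genes with a test kept their direction, and 87 kept direction and side of the threshold. Of the values under these alternatives 2914 were the same in both respects, 128 lost a call (62 of them without the block), 5 gained one and 25 turned. Leaving out 1 library gave 2589 to 3243 higher and 2796 to 3047 lower genes. With no replicate block, and so without the library pairing, 1558 genes were higher and 933 lower, against 3045 and 3395 with it. Scaling by total UMIs, added after seeing the data, gave 4668 and 1879, and cells thinned to 3000 UMIs gave 2027 and 2221, with fewer UMIs to test. The percent cycling followed its definition: 23.3, 28.8, 32.0 and 26.8 from 2 of the 8 genes and 9.40, 12.9, 13.3 and 12.2 from 6, while 8 other genes gave 24.5 in the left ventricular library and removal of cells with other types' markers 13.97 in the SAN library.

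Directions turned in 8 genes, and the cause was not tested. Without cells holding other types' markers, and without these or high Scrublet scores (added after seeing the data), log2 fold changes were -0.15 and -0.16 for Actb, -0.57 and -0.56 for Id3, -0.068 and -0.045 for Egr1, -0.056 and -0.034 for Hspa1a, -0.69 and -0.70 for Fos (-0.097 without high Scrublet scores alone) and -0.69 and -0.68 for Ccnd1. Ccnd1 ranged from -0.12 (without the right ventricular library) to 0.18 when 1 library was left out, and was at -0.37 at matched depth, -0.36 with a muscle score of 2, -0.033 from 6 genes, -0.12 from 8 other genes, -0.045 without high Scrublet scores and -0.12 in thinned cells. Mycn ranged from -0.17 to 0.11 (without the left ventricular library) when 1 library was left out and was at 0.063 under total UMIs, 0.026 from 2 genes and 0.057 in thinned cells, and Meis1 at -0.24 in thinned cells. Counts of 1 to 3 UMIs limit Cpne5, Sln, Ndc80, Kif2c and Nek2 in single libraries.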
